A study of Homo sapiens with 2 samples.

Results

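The genes described here encode the proteasome, the barrel-shaped protease complex that degrades ubiquitin-tagged proteins, together with its activators, inhibitor and dedicated assembly chaperones. Members were all probes of the authors' deposited table whose gene symbol reads PSM, a letter from A to G and a digit. This gave 57 probes for 44 genes, out of 20291 probes for 14894 named genes in that table. Of the 44 genes, 43 are proteasome genes, and PSMC3IP, a recombination factor named after its binding to PSMC3, matched by its symbol only.

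By the labels, RNA came from HCT116 cells, a human colorectal carcinoma line of epithelial origin. With Lipofectamine 2000 they received either a mimic of miR-204-5p, a short synthetic RNA that acts as this microRNA, or a negative control, and were harvested after 48 h. The mimic array and the control array, 1 single-colour Agilent array each, are the whole data set, so no replicate error exists, no difference was tested, and every value below describes these 2 arrays. Intensities are in arbitrary units after both arrays were scaled to a common 75th percentile, and differences are log2 intensity, mimic minus control. A gene is called higher or lower here when it differed by at least 1.5-fold, with no p-value behind the word.

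The arrays differed widely beyond the proteasome. Before scaling, the 75th percentile of intensity was 1364 (mimic) and 894 (control), a log2 shift of 0.61, against median negative-control intensities of 5.59 and 3.60. Set against markers of the labelled line, all 9 measured of 10 listed epithelial markers were higher on the mimic array, with a median difference of 4.72 and summed intensities of 267001 against 44938. The adherens junction gene CDH1 stood at 11324 against 36.6 and the epithelial adhesion gene EPCAM at 65569 against 608. The control array thus carries CDH1 and EPCAM at low levels, and ST14 (199), CLDN3 (119) and CLDN7 (679) were dim there too. The rest of the list was brighter on that array, with KRT18 at 22142, CLDN4 at 13611, KRT19 at 6112 and KRT8 at 1430. All 5 measured of 8 mesenchymal markers were lower, with summed intensities of 3162 against 186957. Of the 5, 3 (VIM, ZEB1 and SNAI2) rest on probes whose mimic signal was the control signal times the deposited fold. Their intensities on the control array were 163211 (VIM), 18685 (ZEB1) and 3286 (SNAI2). SPARC (1595) and CDH2 (180) were dimmer on that array. Of 10 listed blood cell markers, whose cells hold immunoproteasome without stimulation, 7 were measured, 1 was higher and 1 lower. The markers of that list went both ways. Beside the counts of these marker lists, 23.5% of all genes were higher and 24.7% lower. The leukocyte marker PTPRC had 105 against 143, the B cell marker CD79A 5065 against 2431, and the macrophage marker CD68 432 against 1684, from a probe whose mimic signal is likewise set by the deposited fold. Whether both arrays hold the labelled line was not tested. How far a difference in the cells behind each array bears on the proteasome values was not tested either. The mimic, the array and the culture cannot be told apart. In bulk RNA, fewer cells of a type and less RNA per cell cannot be told apart either.

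In the proteasome's core particle, rings of alpha subunits (PSMA genes) gate the barrel and rings of beta subunits (PSMB genes) line its chamber. Only some beta subunits cut peptides, and of these PSMB5 cuts after hydrophobic, PSMB6 after acidic and PSMB7 after basic residues. After interferon-gamma, and constantly in many immune cells, they are replaced in newly made particles by PSMB8, PSMB9 and PSMB10, respectively, giving the immunoproteasome, which favours peptides that fit MHC class I molecules. The regulatory particle, made of PSMC ATPases and PSMD subunits, binds ubiquitinated proteins, removes the ubiquitin and unfolds the protein into the core, whereas PSME proteins open the core without ATP.

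The sequences shown here are the transfected microRNA, and the upstream windows of the members that interferon-gamma is known to induce (PSMB8, PSMB9, PSMB10, PSME1 and PSME2), since the contrast of immunoproteasome and constitutive genes turns on them. The mature microRNA comes from RefSeq (GRCh38.p14), where it lies at chr9:70810031-70810052 on the minus strand. Its seed, bases 2 to 8, is in capitals. No 3' UTR sequence was used here, so no site for this seed was searched in any member.

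hsa-miR-204-5p: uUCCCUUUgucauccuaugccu

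Upstream windows were the 250 bases before RefSeq transcription starts (GRCh38.p14), read 5' to 3' on the gene's strand. They were searched on both strands for the core of the interferon-stimulated response element, GAAA-NN-GAAA without the hyphens, which IRF factors bind, and for the GAS element, TTCNNNGAA, found upstream of genes that interferon-gamma induces. Matches are in capitals, and in the 5 windows below no match of one motif overlaps one of the other. PSMB8 has more than 1 listed start, and the window with the match is shown (chr6:32844048-32844297, minus strand). Those of PSMB9 (chr6:32853942-32854191, plus strand), PSMB10 (chr16:67936851-67937100, minus strand), PSME1 (chr14:24135944-24136193, plus strand) and PSME2 (chr14:24146611-24146860, minus strand) follow.

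PSMB8: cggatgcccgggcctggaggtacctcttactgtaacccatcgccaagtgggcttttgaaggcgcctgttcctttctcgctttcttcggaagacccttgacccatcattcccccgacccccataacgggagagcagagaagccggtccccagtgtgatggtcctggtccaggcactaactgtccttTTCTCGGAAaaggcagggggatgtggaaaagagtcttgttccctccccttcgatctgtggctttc

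PSMB9: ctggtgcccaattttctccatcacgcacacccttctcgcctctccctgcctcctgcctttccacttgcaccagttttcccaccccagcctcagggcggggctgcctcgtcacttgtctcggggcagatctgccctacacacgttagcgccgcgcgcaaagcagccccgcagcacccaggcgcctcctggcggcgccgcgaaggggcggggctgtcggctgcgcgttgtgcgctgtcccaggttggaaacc

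PSMB10: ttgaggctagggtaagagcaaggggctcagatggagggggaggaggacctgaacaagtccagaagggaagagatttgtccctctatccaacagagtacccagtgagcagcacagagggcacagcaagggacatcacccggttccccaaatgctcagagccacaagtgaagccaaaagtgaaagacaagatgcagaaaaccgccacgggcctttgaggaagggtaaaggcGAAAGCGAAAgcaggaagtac

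PSME1: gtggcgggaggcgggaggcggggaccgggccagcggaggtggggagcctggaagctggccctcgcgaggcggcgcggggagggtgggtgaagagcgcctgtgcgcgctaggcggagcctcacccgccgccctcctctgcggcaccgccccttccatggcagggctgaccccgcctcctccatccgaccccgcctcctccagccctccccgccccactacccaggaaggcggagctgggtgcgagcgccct

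PSME2: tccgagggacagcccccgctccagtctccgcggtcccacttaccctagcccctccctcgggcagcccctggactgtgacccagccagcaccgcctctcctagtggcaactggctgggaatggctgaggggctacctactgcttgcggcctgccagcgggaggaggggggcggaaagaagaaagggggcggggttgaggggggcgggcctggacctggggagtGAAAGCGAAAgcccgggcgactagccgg

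The response element core began at position -21 in PSMB10 and -28 in PSME2, where -1 is the last base before the start. PSMB8 held a GAS match from position -65, and the PSMB9 and PSME1 windows held neither motif. Upstream windows were found for 42 of 48 genes, the 44 members and 4 proteasome genes outside the table. The response element core was in 5 of the 42 (11.9%), which were PSMA4, PSMB4, PSMB10, PSME2 and PSMG4. The share was 3.71% over the 27305 RefSeq genes with a window, measured here or not. The GAS element was in 6 (14.3%), which were PSMA2, PSMB5, PSMB8, PSMC4, PSMD3 and PSME3, against 8.09% of those 27305 genes. A match is a description of the letters and not a bound site.

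As a family the proteasome genes lay close to the middle of the array. Of 44 genes, 7 were higher on the mimic array, where 23.5% of all genes were, and 11 were lower, where 24.7% of all genes were. The other 26 (59.1%) stayed within 1.5-fold. The median difference was -0.00, with quartiles of -0.51 and 0.23 and a range of -1.55 to 1.13, against a median of -0.05, quartiles of -0.58 and 0.54 and a range of -10.33 to 8.70 over all genes. The shares are near those of all genes, and no member came near the extremes of the arrays. The higher genes were PSMB2, PSMC3, PSMC5, PSMD1, PSMD3, PSMD5 and PSMG3. The lower genes were PSMA5, PSMA6, PSMB11, PSMC2, PSMC6, PSMD6, PSMD7, PSMD9, PSME1, PSME2 and PSME4. With the authors' deposited normalized values, which lift the median of all genes by 0.64, 22 members were higher and 4 lower, so that 84.6% of the members past the threshold were higher in place of 38.9%. On those values 49.97% of all genes were higher and 10.9% lower, so this split is near that of all genes too.

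**Figure D1:**
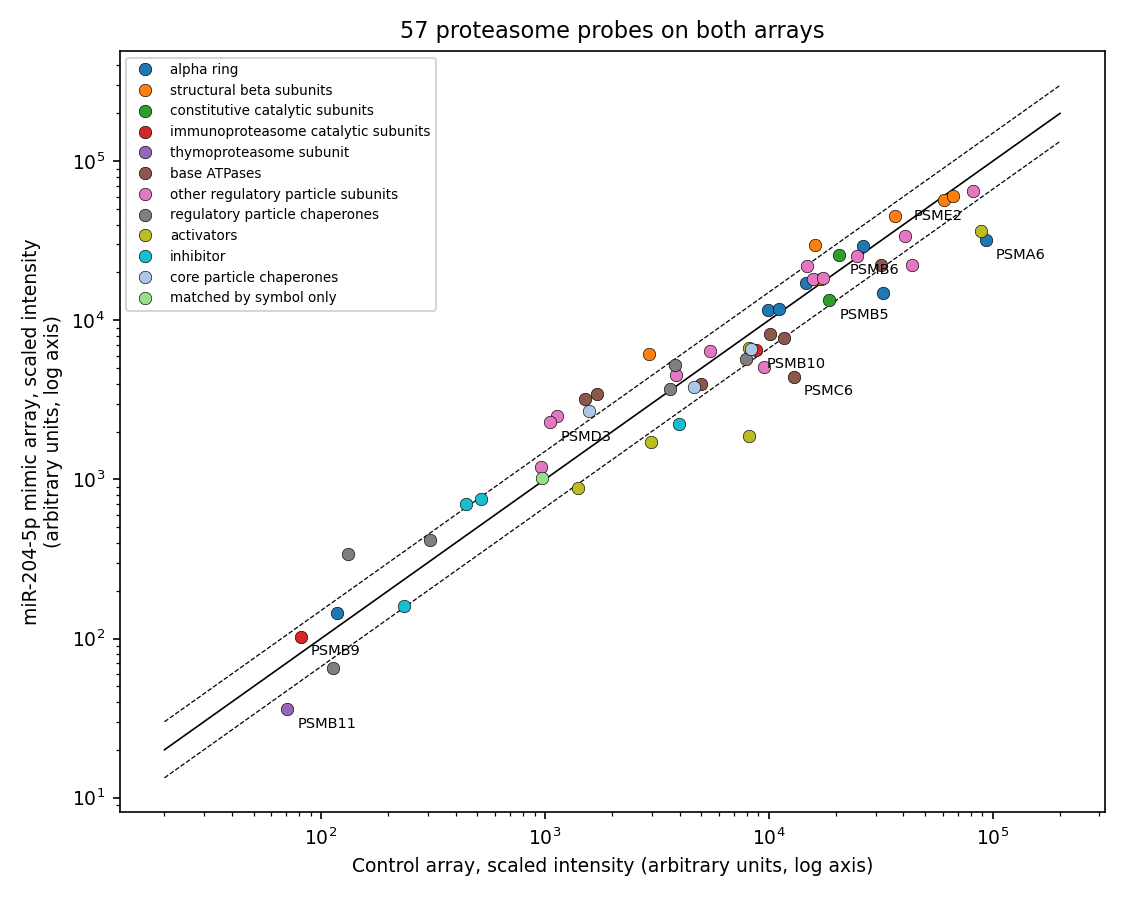
Scaled intensity of each of the 57 proteasome probes on the control array (x, log axis, arbitrary units) and on the mimic array (y, log axis, arbitrary units), coloured by role, with a solid line at equality and dashed lines at 1.5-fold. Most points lie between the dashed lines, PSMA6, PSMC6 and PSME2 lie below them and PSMD3 above them.

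The rule sets the inducible catalytic subunits against those they replace. Of the constitutive subunits, PSMB5 had a mimic intensity of 13424 and a control intensity of 18685, a difference of -0.48. PSMB6 had 25781 against 20638, a difference of 0.32. One lay below zero and the other above it, both within 1.5-fold. Of the inducible subunits, PSMB9 had 103 against 81.2, a difference of 0.34 at a dim probe, 22.7 and 18.3 times the negative-control median. PSMB10 had 6538 against 8816, a difference of -0.43. Again both lay within 1.5-fold and on opposite sides. The median of PSMB9 and PSMB10 was -0.05 and that of PSMB5 and PSMB6 was -0.08, so the inducible pair exceeded the constitutive pair by 0.03. As a scale for that value, the SD between probes of the same gene had a median of 0.37 on these arrays.

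PSMB7 and PSMB8 are not in the authors' table, but scanner probes matched by RefSeq accession read them. PSMB7 had 23268 against 29077, a difference of -0.32. PSMB8 had 8.22 on the mimic array, 1.82 times the negative-control median and reached by 1.31% of the negative-control spots, and 454 on the control array, 102 times that median. With the lowest intensity of a table probe on the mimic array (14.0) as the floor, PSMB8 was at least 32.4-fold lower there. This value comes from 1 spot. Paired by position in the core, PSMB9 differed from PSMB6 by 0.02 and PSMB10 from PSMB7 by -0.11, whereas the gap between PSMB8 and PSMB5, with PSMB8 at that floor, was -4.54 or further below zero. With all 3 genes on each side, the medians were -0.43 (inducible) and -0.32 (constitutive), a gap of -0.11 that does not carry the difference at PSMB8. PSMB8, PSMB9 and PSMB10 thus had unlike differences on these arrays, PSMB8 far below the others.

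**Figure D2:**
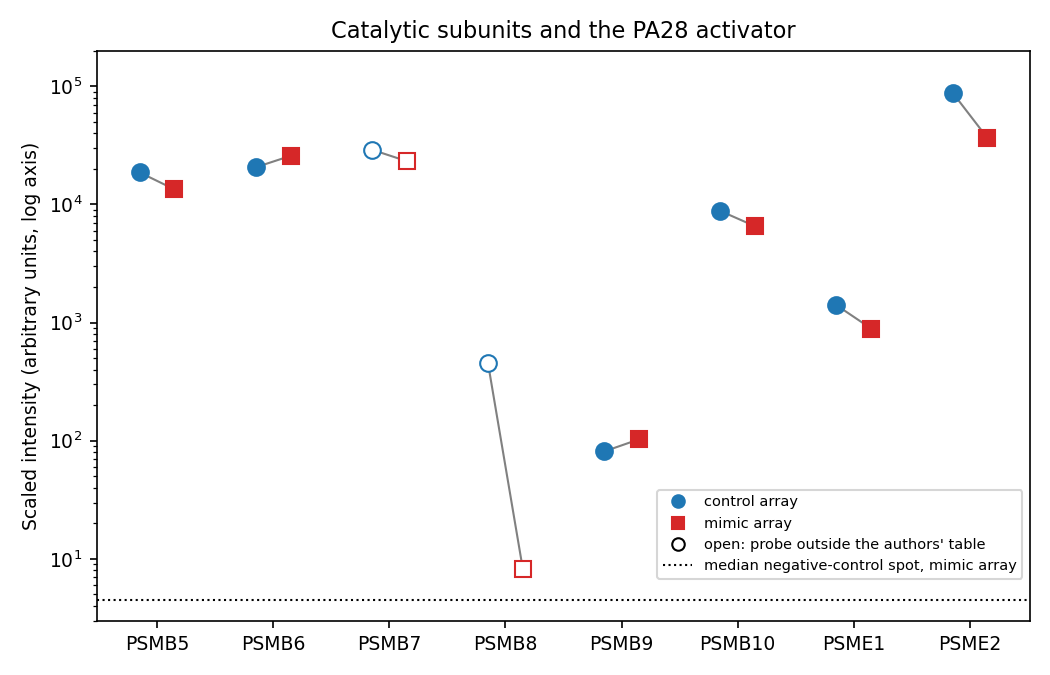
Scaled intensity (y, log axis, arbitrary units) of the constitutive catalytic subunits PSMB5, PSMB6 and PSMB7, the inducible subunits PSMB8, PSMB9 and PSMB10 and the PA28 activator genes PSME1 and PSME2, with a circle for the control array and a square for the mimic array. Open symbols are scanner probes outside the authors' table, the dotted line is the median negative-control spot, and PSMB8 on the mimic array (8.22) is the only symbol near that line.

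PSMB11, the catalytic subunit of the thymoproteasome of the thymic cortex, had 36.1 against 70.5, 1.95-fold lower. A further PSMB11 probe outside the table had 6.51 against 6.14, both near the negative-control median, so this difference rests on 1 dim probe.

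The PA28 activator is a ring of PSME1 and PSME2 proteins that caps the core and is induced by interferon-gamma along with the immunoproteasome. PSME1 had 889 against 1405, a difference of -0.66 or 1.58-fold lower. PSME2 had 36591 against 88423, a difference of -1.27 or 2.42-fold lower. Both PA28 genes were thus lower on the mimic array. Of the inducible subunits, PSMB8 and PSMB10 also lay below zero, PSMB10 within 1.5-fold, and PSMB9 lay above it at a dim probe whose 0.34 becomes 0.03 with normexp background correction. PSME3, which forms the nuclear PA28-gamma activator and is not interferon-induced, had 6708 against 8155 (-0.28, within 1.5-fold). PSME4, the large activator PA200, was read by a pair of probes, one with 1729 against 2978 (-0.78) and the other with 1867 against 8133 (-2.12). At the second probe the mimic signal was the product of the control signal and the fold in the authors' deposited table (relative tolerance 1e-06), as at 1366 table probes in all, so that fold and that signal are 1 value. The fold in the authors' deposited table is -1.51 on the log2 scale, and the scaling used here takes the array shift off it again, so -2.12 is not a measured difference. PSME4 was the only member with such a probe, its mean of -1.45 carries it, and its other probe alone was 1.72-fold lower. The median of the 4 activator genes was -0.97, or -0.72 without that probe, and 3 of them passed the threshold on the lower side either way. This count stands beside 24.7% of all genes, and 41.8% of those on chromosome 14, where PSME1 and PSME2 lie. PSMF1, the PI31 protein that inhibits the core in vitro, had a mean difference of -0.05 over 4 probes that disagreed.

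Interferon-related genes were set beside these members. Of 21 listed genes of interferon induction and peptide loading, 20 were measured, 5 were higher and 6 lower, shares near the 23.5% and 24.7% of all genes, with a median of -0.19. TAP1, the peptide transporter gene that shares its promoter region with PSMB9, had 7106 against 4791 (0.57). The induction factor IRF1 had 227 against 273 (-0.27), within 1.5-fold. The list's 4 largest differences were ERAP2 (-2.43), HLA-C (2.13), ERAP1 (-2.12) and HLA-E (1.58), but both ERAP values come from probes whose mimic signal was the control signal times the deposited fold. Their folds in the authors' deposited table are -1.82 (ERAP2) and -1.51 (ERAP1) on the log2 scale, so their place in this order rests on the scaling. HLA probes may read related HLA genes.

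In the alpha ring, 6 of 8 listed genes were in the table. PSMA6 had 31884 against 93052, 2.92-fold lower, the lowest difference among the members. PSMA5 had 14965 against 32268, 2.16-fold lower. The other 4 alpha genes sat slightly above zero and close together. PSMA2 had 17204 against 14707 (0.23), PSMA4 11658 against 9925 (0.23) and PSMA7 11868 against 11159 (0.09). PSMA1 had a mean difference of 0.23 over a pair of probes at 0.16 and 0.31. PSMA3, outside the table, had 15292 against 16608 (-0.12), and PSMA8, the testis-specific alpha subunit, had 4.26 against 4.21, at the level of negative-control spots. The alpha subunits of 1 ring thus ranged over 1.78 log2 units between PSMA6 and PSMA1.

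Of the structural beta subunits, PSMB2 stood apart from the others. It had 13552 against 6857, 1.98-fold higher, with both probes past the threshold (0.89 and 1.07). PSMB1 had 32237 against 32200 (0.00), PSMB3 45328 against 36724 (0.30) and PSMB4 60341 against 66482 (-0.14). Over the 14 core subunits in the table, 1 gene was higher and 2 were lower, with a median of 0.16, beside 23.5% higher and 24.7% lower over all genes.

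The base of the regulatory particle is a ring of AAA ATPases that unfolds substrates, and its genes went both ways. PSMC3 had 3205 against 1518, 2.11-fold higher. PSMC5 had 3425 against 1708, 2.01-fold higher. PSMC6 went the opposite way, with 4437 against 12925, 2.91-fold lower. PSMC2 had 7778 against 11737 and passed the threshold narrowly at 1.51-fold lower. PSMC1 had 13526 against 17991 (-0.41) and PSMC4 had 4011 against 4962 (-0.31). Of 6 ATPases, 2 were higher, 2 lower and 2 within 1.5-fold, where 23.5% of all genes were higher and 24.7% lower. Subunits that meet in 1 ring differed by up to 2.62 log2 units in their array difference.

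Of the remaining 11 regulatory particle subunits, 2 were higher, 2 lower and 7 within 1.5-fold, again beside 23.5% higher and 24.7% lower over all genes. PSMD3, a scaffold subunit of the lid, had 2306 against 1055, 2.18-fold higher and the highest difference among the members. PSMD1, the large scaffold of the base, had 7402 against 4091, 1.81-fold higher, with probes at 0.57 and 1.14. The brighter of them, at 0.57, was within 1.5-fold. The lid subunits PSMD6 and PSMD7 were on the lower side. PSMD7, the partner of the deubiquitinase PSMD14, had 22426 against 43838, 1.95-fold lower. PSMD6 had 5071 against 9563, 1.89-fold lower. These are the best-measured members, each printed as 10 spots, with an SD of the difference over spots of 0.055 for PSMD7 and 0.061 for PSMD6. Every spot was lower, from -1.06 to -0.89 for PSMD7 and from -0.99 to -0.80 for PSMD6, which shows the scatter of spots on 1 pair of arrays and not that between cultures.

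The other 7 subunits lay between -0.25 and 0.23. PSMD14, the metalloprotease that cuts ubiquitin chains off substrates, had 33942 against 40482 (-0.25). PSMD4, a ubiquitin receptor, had 25238 against 24767 (0.03). PSMD2, a base scaffold that binds ubiquitin-like shuttles, had a mean of -0.01 over a pair of probes that disagreed (0.33 and -0.34). PSMD8 (0.08), PSMD11 (0.23), PSMD12 (0.21) and PSMD13 (0.23), all lid subunits, stood slightly above zero. Over the 17 regulatory particle subunits 4 genes were higher and 4 lower, with a median of 0.03. These shares are near the 23.5% and 24.7% of all genes.

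**Figure D3:**
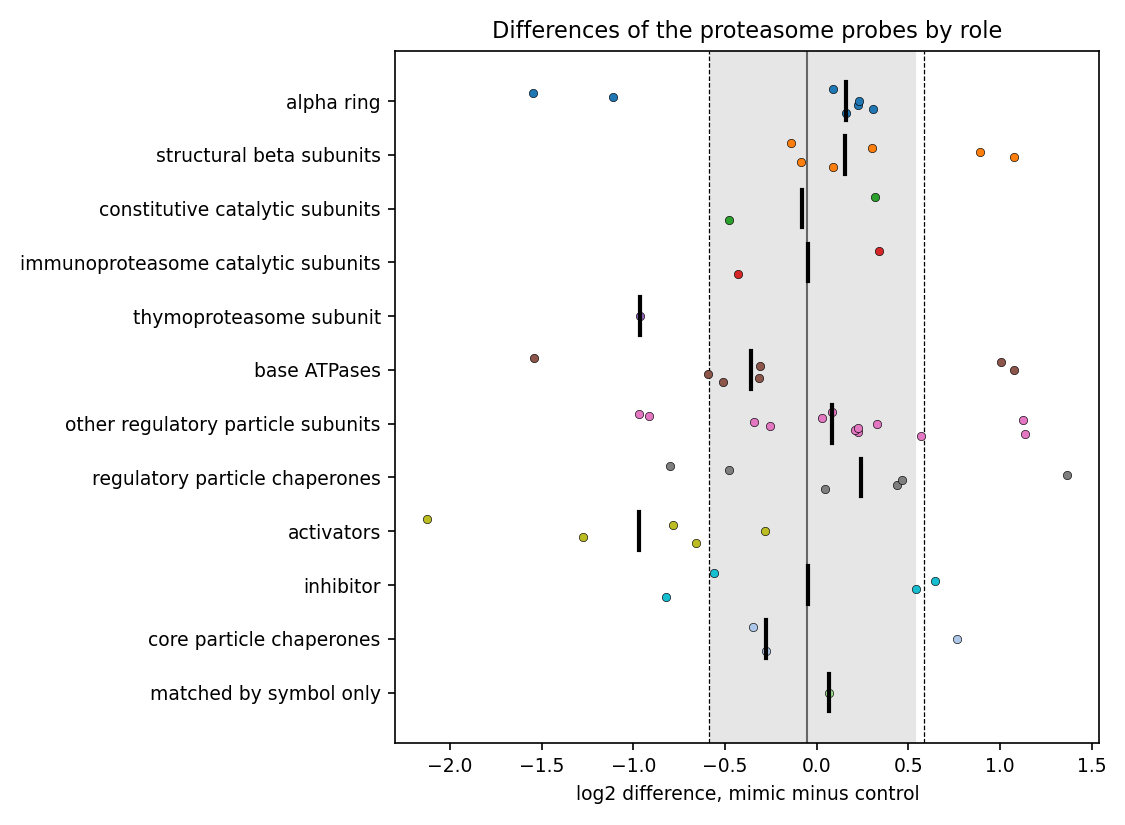
Log2 difference (mimic minus control) of each proteasome probe by role, with a thick bar at the median over the genes of that role, dashed lines at 1.5-fold, and the median (grey line) and middle 50% (grey band) of all genes. The activators lie wholly below zero, and the ATPases and other regulatory particle subunits spread to both sides.

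Assembly chaperones went both ways as well. PSMD5, PSMD9 and PSMD10 escort ATPase pairs during assembly of the base. PSMD5 had a probe mean of 1335 against 707, 1.89-fold higher. Its brighter probe had 5243 against 3798 (0.47) and its dimmer probe 340 against 132 (1.37). PSMD9 had a probe mean of 610 against 948, 1.56-fold lower. Its brighter probe had 5707 against 7943 (-0.48) and its dimmer probe 65.1 against 113 (-0.80). For PSMD5 and PSMD9 only the dimmer probe passed the threshold. PSMD10, also known as gankyrin, had 1245 against 1054 (0.24), while a table probe without a symbol whose description names the same subunit had 347 against 928 (-1.42). That probe is outside the rule and in no count. The PSMG proteins pair up to build the alpha ring. PSMG3 had 2684 against 1577, 1.70-fold higher. PSMG2 had 3839 against 4657 (-0.28) and PSMG4 had 6567 against 8338 (-0.34). PSMG1, outside the table, had 21781 against 24355 (-0.16). PSMC3IP, the gene matched by its symbol only, had 1018 against 971 (0.07).

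Where a gene had more than 1 probe, the probes show how far a single value can be trusted. Of the members, 33 had 1 probe, 10 had a pair and PSMF1 had 4. The median gap within a pair was 0.36 among members and 0.48 over all 2514 genes with a pair. PSMB2, PSMD1, PSMD5, PSMD9 and PSME4, the called genes with a pair, each had both probes on the same side of zero. A call on the mean of the same probes favours that. PSMB2 had both past 1.5-fold, and PSMD1, PSMD5 and PSMD9 only the dimmer probe. PSME4 also had both past it, but 1 of them, as above, is not a measured difference. The PSMF1 probes fell in 2 places of chromosome 20 by the file's coordinates, for which the build was not given in the sources used here. Those starting at 1106195 and 1115812 lay above zero (0.65 and 0.54), and the others, starting at 1147718 and 1148367, lay below it (-0.82 and -0.56). A mean of such probes describes neither place. A second PSMG4 probe, outside the table, had 4.99 against 55.2, at least 3.94-fold lower, where the table probe was within 1.5-fold.

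**Figure D4:**
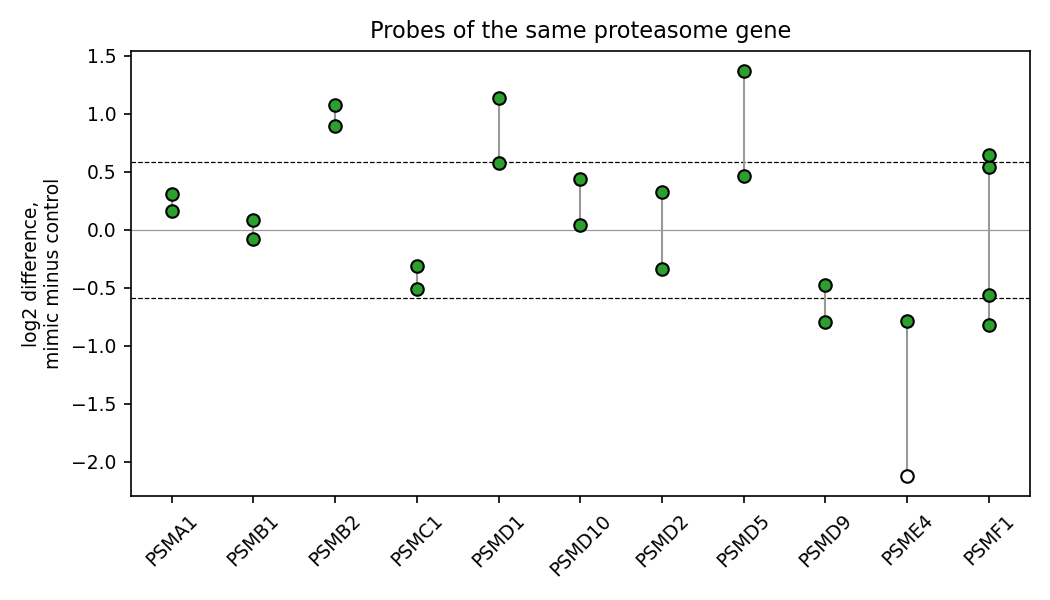
Log2 difference (mimic minus control) of every table probe of the 11 proteasome genes with more than 1 probe, joined by a grey line, with dashed lines at 1.5-fold. The open symbol is the PSME4 probe whose mimic signal was the control signal times the deposited fold, and the PSMF1 probes span -0.82 to 0.65.

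For 3 of the 47 member probes with a chromosome in the file, that chromosome is not the gene's. These are 1 PSMC1 probe (on 7, gene on 14), the PSMD12 probe (on 3, gene on 17) and the PSMD4 probe (on 10, gene on 1). Proteasome genes have processed pseudogenes, and what these probes read was not checked. All 3 genes were within 1.5-fold.

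By gene position, members on chromosome 14 lay together, a pattern picked out after the values were seen. All 7 members there, PSMA6, PSMB5, PSMB11, PSMC1, PSMC6, PSME1 and PSME2, were below zero, from -1.55 to -0.41, with a median of -0.97. The 464 measured genes of chromosome 14 also lay low, with a median of -0.40, the lowest of the 23 chromosomes examined, 67.5% of them below zero and 41.8% at least 1.5-fold lower. On chromosome 17, 7 of 8 members were above zero, with PSMD3 (1.13) and PSMC5 (1.00) the highest and a member median of 0.27. The 866 measured genes there had a median of 0.32, the highest of the 23, and 39.5% were at least 1.5-fold higher. PSME1 and PSME2, which are near neighbours, and 3 further lower genes, PSMA6, PSMB11 and PSMC6, thus share a chromosome whose genes were low as a whole. Chromosome 16 went otherwise. Its 647 measured genes had a median of 0.19, with 33.4% at least 1.5-fold higher, but its members PSMD7 (-0.97) and PSMB10 (-0.43) lay below zero. The part of chromosome position in these values was not tested.

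**Figure D5:**
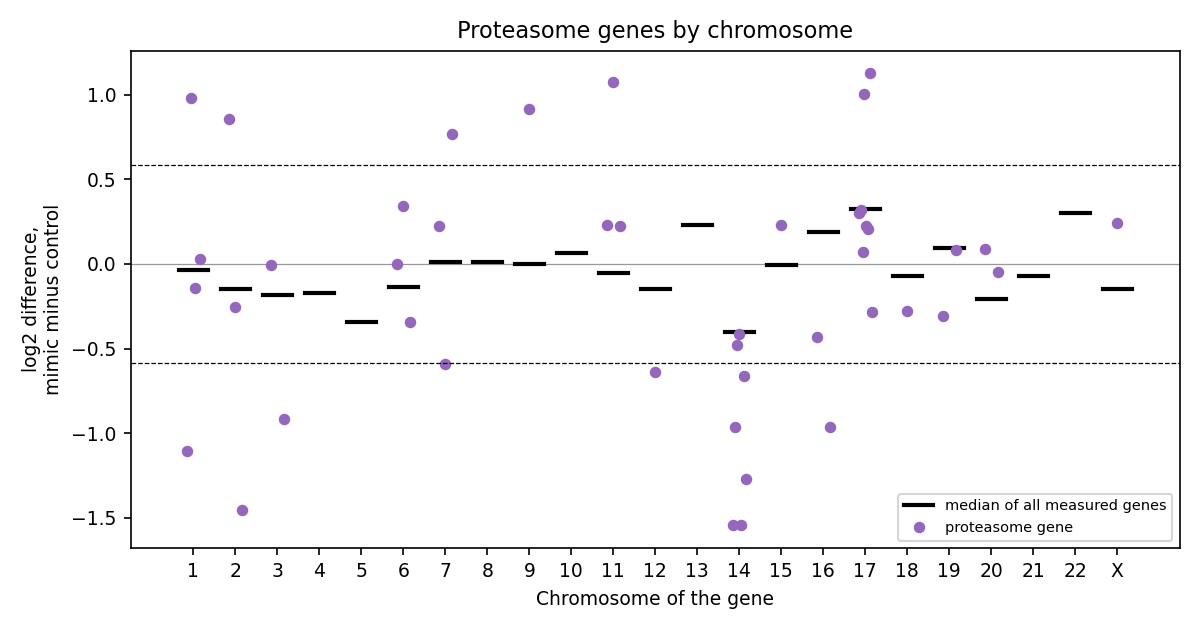
Log2 difference (mimic minus control, y) of each proteasome gene by the chromosome of the gene (x), with a black bar at the median of all measured genes of that chromosome and dashed lines at 1.5-fold. All 7 members on chromosome 14 lie below zero, where the bar is at -0.40, and 7 of 8 on chromosome 17 lie above zero, where the bar is at 0.32.

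Genes that work with the proteasome were read from lists. Of 14 other subunits, assembly and docking factors, all were measured, 2 were higher and 4 lower, with a median of 0.08. Over all genes 23.5% were higher and 24.7% lower. The shuttle UBQLN1 was 1454 against 2888 (-0.99) and its relative UBQLN2 3129 against 1760 (0.83). SEM1, the smallest subunit of the regulatory particle, was 21287 against 39536 (-0.89), and ECPAS, which binds the 26S particle, had a mean of -0.94 that includes 1 probe with a signal set by the deposited fold. POMP, the chaperone that matures beta rings, was 1429 against 2232 (-0.64).

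Of 8 genes of proteasome gene transcription, 6 were measured, 1 was higher and 2 lower, with a median of -0.23. These counts stand beside 23.5% higher and 24.7% lower over all genes. NFE2L1, the factor that raises proteasome gene transcription when proteasome activity is short, had 27980 against 16972 (0.72). NGLY1, which removes the glycans of that factor, had 8975 against 14685 (-0.71). Its possible partners, the small MAF proteins, went both ways, with differences of -1.36 (MAFF), -0.48 (MAFK) and 0.29 (MAFG). The site that such heterodimers bind was searched as TGANTCAGC on both strands. It was in the upstream window of 1 of 42 proteasome genes, PSMD9, against 1.37% of the 27305 RefSeq genes with a window. The CCAAT box, CCAAT, was in 20 of 42 (47.6%) against 37.0% of those 27305 genes.

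All 17 listed genes of ubiquitin, its segregase and heat shock were measured, and 6 were higher and 3 lower, with a median of 0.38. Beside them, 23.5% of all genes were higher and 24.7% lower. The heat shock chaperones HSPA1B (7595 against 1875), HSPA8 (11769 against 3491) and HSP90AB1 (18484 against 5943) differed by 2.02, 1.75 and 1.64, and UBA6, a ubiquitin-activating enzyme, by -1.41. HSPA1B is nearly identical to HSPA1A, whose probe had 52.2 against 85.2 (-0.71). The HSPA1A and HSPA1B probes thus gave unlike signals, and which transcripts each reads was not checked.

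The precision of every value is limited by the number of arrays, 1 per condition. Of the 57 member probes, 56 are marked Up in the authors' deposited table, 12 of them with a deposited fold below 1, so that mark was not used.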

How the data were processed

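Cy3-labelled cRNA from total RNA (Quick Amp kit, per the labels' protocols) was read on 1 array per condition. The submitters' processing notes name Agilent Feature Extraction 9.1. Platform name, build of the file's coordinates and normalization method were not given in the sources used here. Deposited scanner files give 44495 spots per array as linear intensity. For 20291 probes the authors' deposited table adds normalized log2 values and, as a ratio, the fold of mimic over control, per the file headers. On the mimic array every spot of 56 member probes was 1.2 times a 7-digit number, and the signal of the other was the control signal times the deposited fold. Scaling removes a common factor, but whether the deposited mimic signals are unaltered measurements is not known, which bears on every mimic intensity given.

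Log2 intensities of a probe's spots were averaged, each array's 75th percentile over 34127 non-control probes was subtracted, and printed intensities were returned to a linear scale with the 2 percentiles' geometric mean. A gene's value is the mean over its table probes. Genes were named through Entrez identifiers (17578 probes), accessions (23) or the file's symbol (695), with RefSeq symbols, and 1995 table probes stayed unnamed. No test, SE or p-value is possible with 1 array each. All members are named, and of each pathway list the 4 largest differences, with others beside them chosen after their values were seen. The members, roles and lists were chosen with earlier results of these data known. Alternatives used limma 3.58.1 (R 4.3.3) for quantile normalization, cyclic loess and normexp (offset 50), and otherwise median centring, the percentile over table probes, the deposited normalized values, a constant of 32, the brightest probe per gene, the brighter part of the probes and a 2-fold threshold. Chosen after seeing the data were leaving out recomputed probes (mimic signal equal to control times fold) or probes on another chromosome, adding scanner probes, and centring on all genes. The calculation was tested on simulated data. Floors and scanner probes outside the table are described where used. The value of a further gene of the interferon list, which its counts include, is not reported here.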

Additional observations from a re-analysis of the deposited data

Results flagged for a closer look

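Probes that the counts of genes do not use, because they are outside the authors' table, carried signal for 4 proteasome genes far above the negative-control spots of the control array (median 4.45 on the scaled scale). On that array PSMA3 had a scaled intensity of 16608, PSMB7 29077, PSMG1 24355 and PSMB8 454. On the mimic array PSMA3 (15292), PSMB7 (23268) and PSMG1 (21781) were bright as well, and PSMB8 (8.22) was not. Why these probes are not in the table was not tested.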

How the results depend on the processing

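A value was taken as moved when it shifted by more than 0.37 log2, the median SD between probes of a gene, and a count when it shifted by over 1.5 times. With the authors' deposited normalized values 22 members were higher and 4 lower, with a median of 0.60 against 0.58 over all genes. On those values PSMB5 was at 0.24, PSMB6 at 1.00, PSMB9 at 1.01, PSMB10 at 0.29, PSME1 at -0.09 and PSME2 at -0.64, so that PSMB5 and PSMB10, never past 1.5-fold, changed sign. Less the median of all genes, the same values gave 7 higher and 9 lower, where 25.2% of all genes were higher and 23.1% lower. At 2-fold, 3 members were higher and 5 lower, fewer by construction. Of all 14894 genes, 2080 were higher and 2128 lower at that threshold. In the brighter part of the probes PSMB9 drops out, and the inducible subunit left, PSMB10, lay below the constitutive pair by 0.35 (-0.35). Of 106 recomputed values 12 moved, all given here, and why the deposited values lie higher was not tested. The member median relative to all genes was 0.05, and -0.05 with the brightest probe per gene. Of 18 called members, all 18 kept their side relative to all genes under 8 alternatives of scaling, floor, source and probe choice, and 13 also stayed past 1.5-fold. Uncentred, 16 kept their side (PSMC2 and PSMD9 turned with the deposited values) and 9 stayed past 1.5-fold. No paired analysis was possible because each group has 1 array. Depth has no counterpart in counts here, and PSMB9 and PSMB11 are the members nearest to background.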
